A study of Mus musculus with 16 samples.

Results

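Mitochondrial chaperones, mitochondrial proteases and genes of the integrated stress response were followed in brain RNA of mice that carry the V338Y mutation in MRPS5, which belongs to the small mitoribosomal subunit. The 35 genes were taken from a list of names, and all 35 were present among the 39179 gene identifiers measured. The question put to them was whether misreading by mitochondrial ribosomes is accompanied by a proteostasis response at the transcript level. RNA sequencing covered 16 mice in 4 groups of 4: MRPS5 wild-type and V338Y mice at 3 months of age, and MRPS5 wild-type and V338Y mice at 19 months of age. According to the study's methods, the V338Y mice are homozygous knock-in animals and the tissue is cortex, while the labels name brain. The mutation is present in every cell of the mutant mice, so the origin of a response in one cell type cannot be read from whole-tissue RNA, and for any transcript fewer cells of a type and less RNA per cell cannot be told apart. Each library is labelled with an animal number, used below to name the mouse together with its group, since numbers recur between groups.

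Proteins made on mitochondrial ribosomes are inserted into the inner membrane together with nuclear-encoded partners, and unfolded or unpaired chains are refolded by chaperones in the matrix or degraded by ATP-dependent proteases of the matrix and the inner membrane. In many mammalian cells, mitochondrial dysfunction is relayed to the cytosol by activation of OMA1 and phosphorylation of the translation factor eIF2, which favours translation of the transcription factor ATF4. ATF4, with ATF5 and CHOP (encoded by Ddit3), then raises transcription of genes for amino acid synthesis, mitochondrial one-carbon metabolism and stress feedback. By role, the members were 5 mitochondrial chaperones, 9 mitochondrial proteases, 2 prohibitins, 5 stress transcription factors, 4 stress effectors, 7 enzymes of amino acid and serine synthesis and 3 mitochondrial one-carbon enzymes.

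The binding site for ATF4 with a C/EBP partner is the C/EBP-ATF response element, and its core was searched as TGATGNAA, with TTNCATCA as the other strand, in RefSeq promoter windows of the GRCm38.p6 assembly that reach from 250 bases before to 50 bases after a start site. Promoter windows were matched for 31 of the 35 members; Hspa9, Afg3l2, Cth and Htra2 had none. The core was present in 5 of 34 windows of members (14.7%) and in 1304 of 32851 windows of all genes (3.97%). The list was made to hold targets of the integrated stress response, so these shares are no test of enrichment. These 5 members were Atf3, Chac1, Asns, Pycr1 and Trib3, and in Trib3 the match lay after the start, at positions 14 to 21. The stretches around the other 4 matches are shown because they lie before the start site, in members whose levels passed the age test in wild-type animals, Atf3 upwards and the others downwards. Capitals mark the match, and each stretch is written 5′ to 3′ on the strand of its gene.
Atf3, chr1:191183396-191183483, minus strand: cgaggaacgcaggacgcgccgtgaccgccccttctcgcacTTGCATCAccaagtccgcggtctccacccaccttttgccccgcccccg
Chac1, chr2:119351009-119351096, plus strand: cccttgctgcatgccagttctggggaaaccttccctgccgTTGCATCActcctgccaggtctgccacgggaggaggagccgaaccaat
Asns, chr6:7693210-7693272, minus strand: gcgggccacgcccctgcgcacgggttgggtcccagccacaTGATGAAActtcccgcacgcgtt
Pycr1, chr11:120643804-120643891, minus strand: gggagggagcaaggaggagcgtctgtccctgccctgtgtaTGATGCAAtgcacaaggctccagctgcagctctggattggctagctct
Counted from the start site, the matches lay at positions -110 to -103 in Atf3, -193 to -186 in Chac1, -23 to -16 in Asns and -103 to -96 in Pycr1. The cyclic AMP response element TGACGTCA, which reads the same on both strands, was present in 1 member window, that of Trap1 (2.94% of member windows and 1.79% of all windows), and no member window held both motifs. A match to these letters is a description of the sequence, and no binding was measured here.

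The libraries held 6181448 to 19601664 counts per mouse. Levels are given as CPM, counts scaled to a common library size that was adjusted by the trimmed mean of M-values (TMM), on a single scale for the 16 mice. Mrps5 itself was at 39.4 CPM in wild-type and 39.3 CPM in V338Y mice at 3 months, with a log2 fold change of 0.003 ± 0.068 (SE, n = 4 per group), so the amount of its transcript does not check the genotype labels. The libraries went against the description of the animals: the methods describe all mice as female, whereas the 8 libraries of 3 months held 242 to 288 CPM of 4 Y-linked transcripts and at most 1.2 CPM of Xist, and the 8 libraries of 19 months held 0 of these Y-linked transcripts and 705 to 1180 CPM of Xist. The summed level of 12 cerebellum markers was 134 to 162 CPM in the 19-month mice, 761 to 1230 CPM in the 3-month wild-type mice, and 1250 to 1710 CPM in the 3-month V338Y mice other than mouse 14, which had 181 CPM. Between 3 and 19 months, astrocyte markers were at 4190 to 4920 and 7510 to 8980 CPM, microglia markers at 249 to 349 and 562 to 644 CPM, and endothelial markers at 234 to 254 and 1020 to 1190 CPM, without overlap. Age therefore cannot be told apart from sex and from the dissected region in these libraries, and every age comparison below carries that limit. The labels of the 19-month libraries also end in a letter N that those of the 3-month libraries lack, and its meaning is not given. Neuron markers were at 6710 to 7790 and 7290 to 8060 CPM.

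All 35 members were expressed. Set per kilobase of exon in 3-month wild-type mice, the most abundant members were Hspa9 (mortalin, the HSP70 of the matrix and the motor of protein import), at 63.3 CPM per kb, and Hspd1 (the chaperonin HSP60), at 58.4 CPM per kb. Atf4 followed with 58.2 CPM per kb and Asns (asparagine synthetase) with 46.4 CPM per kb, so that a stress transcription factor and one of its targets stood beside the chaperones in level. The proteases ranged from 29.4 CPM per kb for Clpp, the proteolytic subunit of the ClpXP protease, to 5.52 CPM per kb for Oma1. The lowest levels were those of Atf3 (0.513 CPM per kb), Trib3 (0.478 CPM per kb) and Pycr1 (0.39 CPM per kb). At least 50 counts were present in every mouse for 28 members. The other 7 were Pycr1 with 3 to 20 counts, Trib3 with 4 to 24, Atf3 with 9 to 54, Cth with 18 to 88, Chac1 with 25 to 141, Mthfd2 with 37 to 195 and Sesn2 with 43 to 296. Hspd1, Hspe1, Hspa9 and Phgdh have annotated pseudogene copies among which reads could have been divided, and Hspd1 and Hspe1 overlap at their starts on opposite strands.

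**Figure D1:**
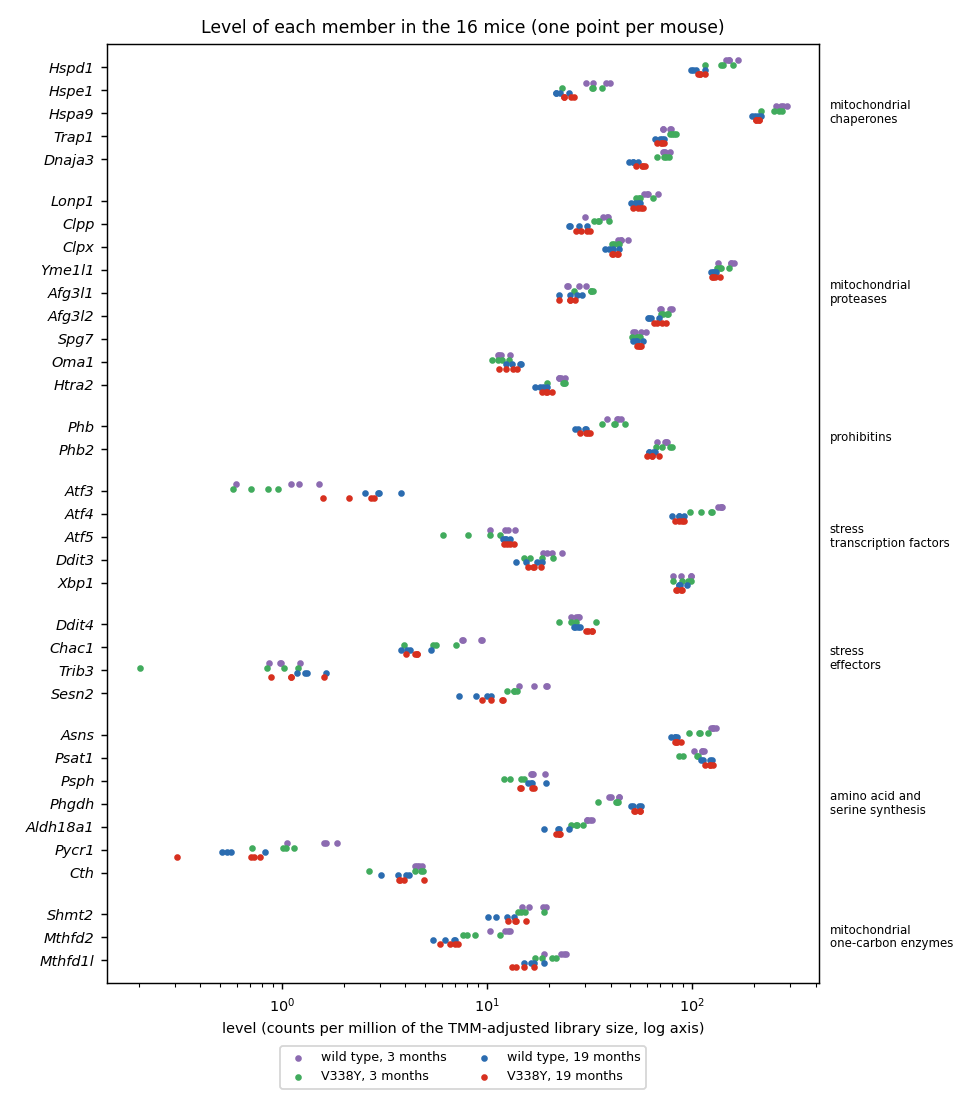
Level of each of the 35 members in each of the 16 mice, in CPM on a log axis, with genes in rows grouped by role and groups of mice in colours. For most chaperones and for Atf4 and Asns the 19-month points (blue and red) lie to the left of the 3-month points (violet and green), while for Atf3 they lie to the right; Hspa9 is the highest row, at 196 to 289 CPM.

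Genotype at 19 months. None of the 35 members passed the test between V338Y and wild-type mice at 19 months with edgeR's quasi-likelihood test and Benjamini-Hochberg adjustment over all genes, where 1.19% of 16420 genes were higher and 1.92% lower in V338Y mice. The largest log2 fold changes were 0.22 for Sesn2 and -0.44 for Atf3, and the median over the members was 0.035, beside -0.001 over all genes. At an unadjusted p under 0.05, 4 members were higher and 2 lower, beside 7.66% and 8.54% of all genes. The likelihood-ratio test of edgeR and DESeq2 also called 0 members. The estimates were narrow: the 95% interval lay within ±0.3 on the log2 scale for 26 members and within ±0.5 for 32.

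The member nearest to the threshold was Ddit4 (REDD1), an inhibitor of mTORC1 that is induced by stress and by glucocorticoids. It was at 26.4, 27.8, 26.9 and 28.4 CPM in wild-type mice 12 to 15 and at 31.2, 30.4, 32.5 and 32.4 CPM in V338Y mice 17 to 20. All 4 V338Y mice were above all 4 wild-type mice. The log2 fold change was 0.22 ± 0.06 (SE), a difference of 16.1%, with an adjusted p of 0.0506. Under 5 of the other settings, among them another normalization and another filter, Ddit4 passed the threshold, so its call depends on the processing.

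Afg3l2, a subunit of the m-AAA protease of the inner membrane, was at 69.1, 60.6, 62.9 and 61.7 CPM in the wild-type and 65.1, 67.6, 74.5 and 71.2 CPM in the V338Y mice at 19 months. The groups overlapped, and the log2 fold change of 0.13 ± 0.05 had an adjusted p of 0.198. Dnaja3 (TID1), the matrix J-domain co-chaperone of mortalin, was at 54.3, 51.7, 51.3 and 49.4 CPM in the wild-type and 57.1, 53.2, 57.3 and 58.6 CPM in the V338Y mice, with a log2 fold change of 0.12 ± 0.05 and an adjusted p of 0.218. Here only V338Y mouse 18 lay within the range of the wild-type mice.

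The chaperones as a group had log2 fold changes between 0.01 (Trap1, the mitochondrial HSP90) and 0.12 (Dnaja3), with Hspd1 at 0.06 and its co-chaperonin Hspe1 at 0.12. The proteases lay between -0.10 for Oma1 and 0.13 for Afg3l2. Among them Lonp1, which degrades oxidised and misfolded proteins of the matrix, was at 0.04 (95% interval -0.07 to 0.15), and Clpp at 0.12 (-0.02 to 0.27). The prohibitins Phb and Phb2, ring-forming partners of the m-AAA protease, were at 0.09 and 0.01. The arm of stress transcription factors was equally flat apart from Atf3: Atf4 had a log2 fold change of 0.016 (95% interval -0.08 to 0.11), Atf5 0.05, Ddit3 0.05 and Xbp1, the factor of the endoplasmic reticulum unfolded protein response, -0.04. Atf3 was at 3.79, 2.98, 2.93 and 2.54 CPM in the wild-type and 2.73, 2.13, 2.82 and 1.59 CPM in the V338Y mice, with overlap and an adjusted p of 0.277.

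Of the targets, Asns had a log2 fold change of 0.05 (95% interval -0.04 to 0.14), Psat1 0.035 and Phgdh 0.01, and the intervals of these 3 genes ended at or below 0.138 on the log2 scale. Shmt2 and Mthfd1l, which act in the same mitochondrial folate pathway, had values of opposite sign, 0.21 and -0.19, with adjusted p-values of 0.283 and 0.303. Values for Pycr1 (95% interval -0.97 to 0.97), Trib3 (-0.79 to 0.34) and Cth (-0.25 to 0.41) were too imprecise to exclude changes of that size. Choroid plexus markers ranged from 168 to 2370 CPM among the 19-month V338Y mice and from 241 to 1040 CPM among the wild-type mice; none of these 8 markers was called. Microglia markers were at 619 to 644 CPM in the wild-type and 562 to 611 CPM in the V338Y mice, without overlap, and 3 of 10 were called lower, with a median log2 fold change of -0.155. Meninges markers were at 318 to 368 and 291 to 348 CPM, and 2 of 8 were called lower and 1 higher. Of 10 astrocyte markers 1 was called lower, with a median of -0.08. Of 8 endothelial markers 7 were below zero and 0 were called. Called higher were 2 of 12 neuron markers and 1 of 8 oligodendrocyte markers. The part of these cell types in the values between genotypes was not tested.

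**Figure D2:**
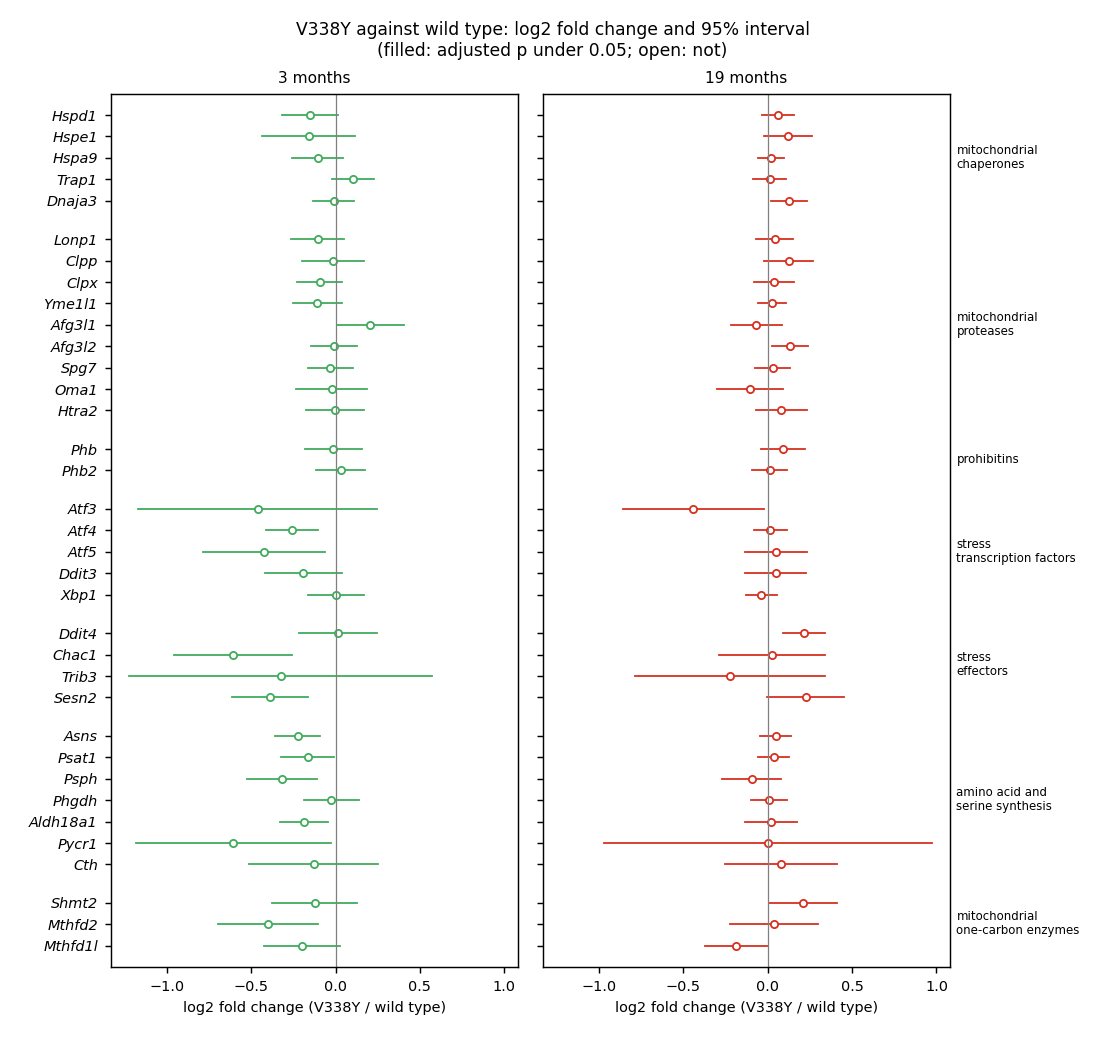
Log2 fold change of V338Y against wild-type mice for the 35 members at 3 months (left, green) and 19 months (right, red), with 95% intervals as lines; open points did not reach an adjusted p under 0.05, and no point is filled. At 3 months 30 of the 35 points lie to the left of zero, and at 19 months 28 lie to the right of it, most of them close to it.

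Genotype at 3 months. No member passed the test at 3 months either, where edgeR's quasi-likelihood test called 0.0185% of 16241 genes higher and 0.0431% lower in V338Y mice; the likelihood-ratio test and DESeq2 also called 0 members. At an unadjusted p under 0.05, 10 members were lower and 1 was higher, beside 2.65% and 2.37% of all genes. The median log2 fold change of the members was -0.123 and that of all genes 0.005. For 6 members, Atf4, Chac1, Sesn2, Asns, Psph and Aldh18a1, all 4 V338Y mice were below all 4 wild-type mice, beside 1.86% of all genes. Their adjusted p-values were between 0.848 and 0.926, so none of these differences stood against the number of genes tested.

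By role, median log2 fold changes were -0.36 over the stress effectors, -0.26 over the stress transcription factors, -0.20 over the one-carbon enzymes and -0.19 over amino acid and serine synthesis. They were -0.11 over the chaperones, -0.022 over the proteases and 0.008 over the prohibitins, and the difference between roles was not tested. The 10 members that were lower at an unadjusted p under 0.05 were Atf4, Atf5, Chac1, Sesn2, Asns, Psat1, Psph, Aldh18a1, Pycr1 and Mthfd2. Values within a role overlapped with those of other roles, as with -0.15 for Hspd1 and -0.16 for Hspe1 beside -0.026 for Phgdh. The protease Afg3l1, a second m-AAA subunit, was the member with an unadjusted p under 0.05 in the other direction, at a log2 fold change of 0.21 ± 0.09 and an adjusted p of 0.926.

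Atf4 was at 140, 133, 138 and 139 CPM in wild-type mice 9 to 12 and at 125, 111, 97.1 and 124 CPM in V338Y mice 13 to 16. The wild-type mice lay close together and the V338Y mice were spread over a wider range below them. The log2 fold change was -0.26 ± 0.07, with an adjusted p of 0.848. Asns was at 127, 131, 127 and 123 CPM in the wild-type and 108, 109, 96.1 and 119 CPM in the V338Y mice, with a log2 fold change of -0.22 ± 0.06 and the same adjusted p of 0.848.

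Chac1, whose product degrades glutathione, was at 9.49, 9.33, 7.54 and 7.66 CPM in the wild-type and 5.43, 5.65, 3.94 and 7.07 CPM in the V338Y mice. Its log2 fold change of -0.61 (95% interval -0.96 to -0.26) was the largest in size at this age, and it rested on few counts. Chac1 lies on chromosome 2, 8.23 Mb from Mrps5, the locus that was edited; at 19 months its value was 0.03 ± 0.15. Sesn2 (sestrin 2, an inhibitor of mTORC1 that senses leucine) was at 14.3, 19.6, 16.9 and 19.3 CPM in the wild-type and 12.5, 13.6, 13.5 and 14 CPM in the V338Y mice, with a log2 fold change of -0.39 ± 0.11. The highest V338Y mouse and the lowest wild-type mouse were close together for Chac1 and for Sesn2.

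Mouse 15 stood apart among the 3-month V338Y mice: it was the lowest of the 4 for 21 of the 35 members, Atf4, Atf5, Hspd1, Chac1 and Asns among them. Its microglia and oligodendrocyte markers were the lowest of its group, at 249 and 3610 CPM, and its cerebellum markers the highest, at 1710 CPM; their part in its values was not tested. Without mouse 15, 10 members were lower at an unadjusted p under 0.05, the median of the members was -0.087, and the log2 fold changes were -0.20 for Atf4, -0.49 for Chac1, -0.40 for Sesn2 and -0.18 for Asns. Leaving out any 1 mouse gave 8 to 10 such members. With the cerebellum markers as a covariate and all 8 mice in the fit, 11 members were lower at an unadjusted p under 0.05 and the median was -0.105. When mouse 14 was left out and the cerebellum markers were entered as a covariate, an alternative added after the data were seen, 1 member was lower at an unadjusted p under 0.05 and the median was -0.053. In the 7 mice left, the summed markers were at 761 to 1230 CPM in wild-type and 1250 to 1710 CPM in V338Y mice, close together but without overlap. The covariate, the mean log level of the markers, is thus tied to genotype, and that fit can separate region from genotype only in part.

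**Figure D3:**
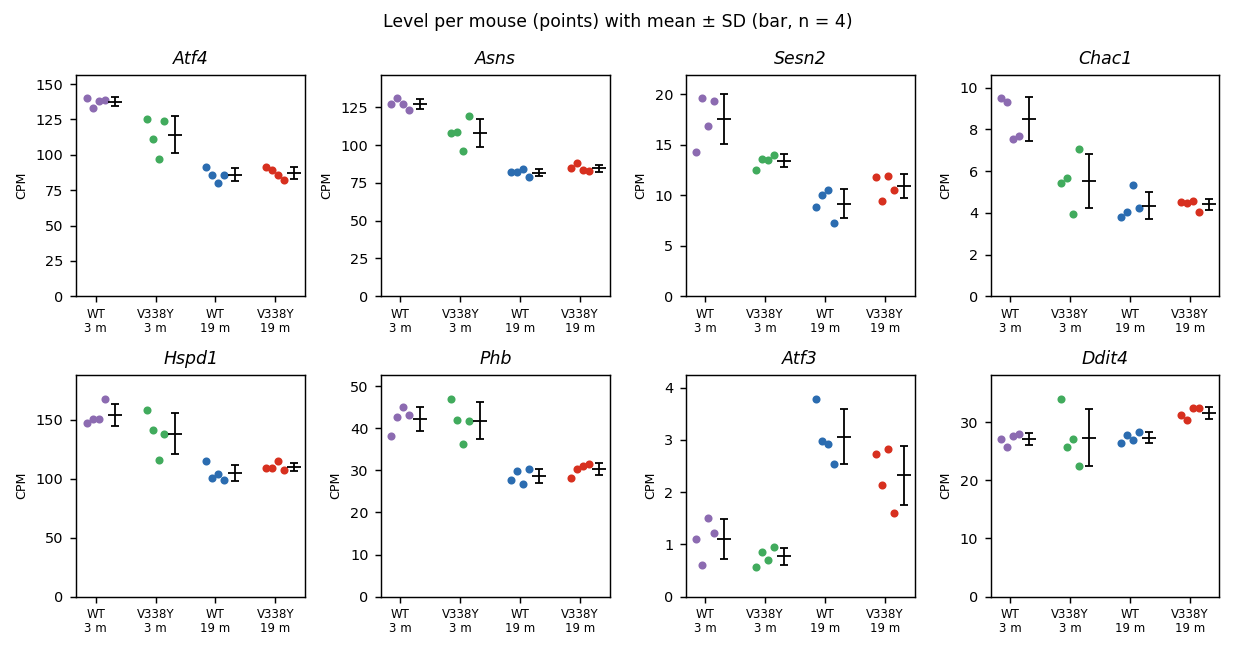
CPM of 8 members in each mouse (points) with the mean and SD of each group of 4 (black bar), on axes that start at 0. Atf4, Asns, Sesn2 and Chac1 are highest in the 3-month wild-type mice. The mean of the 3-month V338Y mice lies between these and the means of the 19-month mice, although single points overlap for Chac1. For Ddit4 the points of the genotypes do not overlap at 19 months, although it did not pass the test. For Atf3 the points of the ages do not overlap.

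19 against 3 months in wild-type mice. In wild-type mice 22 of the 35 members fell and 3 rose between 3 and 19 months, where edgeR's quasi-likelihood test called 31.5% of 16101 genes lower and 31.4% higher. The median log2 fold change of the members was -0.266 and that of all genes -0.005. The chaperones fell in 4 of 5 cases, the proteases in 6 of 9, both prohibitins and all 3 one-carbon enzymes fell, and the stress transcription factors moved in both directions. The transcripts of the 35 members together made up 0.194 to 0.2% of all counts in the 3-month and 0.145 to 0.158% in the 19-month wild-type mice.

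Among the chaperones, Hspe1 fell by 0.60 on the log2 scale, Hspd1 fell by 0.54, Dnaja3 fell by 0.50 and Hspa9 fell by 0.39, with adjusted p-values of at most 3.65e-07. Hspd1 was at 147, 151, 151 and 168 CPM at 3 months and at 115, 101, 104 and 99.1 CPM at 19 months. Trap1 had a log2 fold change of -0.096, with an adjusted p of 0.119. The chaperonin pair HSP60 and HSP10 and mortalin with its co-chaperone thus fell, while the mitochondrial HSP90 did not pass.

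Of the proteases, Clpp fell by 0.41, Htra2 (a serine protease of the intermembrane space) fell by 0.29, Yme1l1 (the i-AAA protease) fell by 0.24, Afg3l2 fell by 0.21, Lonp1 fell by 0.20 and Clpx (the unfoldase partner of Clpp) fell by 0.15. The call of Clpx, at an adjusted p of 0.0433, was lost in fits without 3-month mouse 10 or 19-month mouse 13, 14 or 15, with the likelihood-ratio test, with DESeq2, with at least 10 counts required in every sample and with GC content and length trends removed. The call of Htra2 was also lost with these trends removed. With the cerebellum markers as a covariate Clpx was at 0.64, with the opposite sign, and Htra2 did not pass. Afg3l1 was at -0.015, Spg7 (paraplegin, another m-AAA subunit) at -0.01 and Oma1 at 0.21, with adjusted p-values of 0.887, 0.882 and 0.0692. Phb fell by 0.56 and Phb2 fell by 0.19.

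Atf4 fell by 0.66 on the log2 scale, or by 36.8%, from 133 to 140 CPM at 3 months to 91.4, 85.8, 80.1 and 85.9 CPM at 19 months (adjusted p = 4.46e-13). The ages were far apart, with the highest 19-month mouse well below the lowest 3-month mouse. Asns fell by 0.62, to 82.2, 82.1, 84.3 and 78.8 CPM (adjusted p = 1.11e-12), and Ddit3 fell by 0.31 (adjusted p = 0.00629), a call that was lost without 19-month mouse 13. Atf5 and Xbp1 had log2 fold changes of 0.04 and -0.03, with adjusted p-values of 0.754 and 0.695.

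The 3 largest falls were those of Pycr1, Chac1 and Sesn2. Pycr1, a mitochondrial enzyme of proline synthesis, was at 1.85, 1.06, 1.60 and 1.64 CPM at 3 months and 0.564, 0.828, 0.542 and 0.507 CPM at 19 months. It fell by 1.22 on the log2 scale (95% interval -1.90 to -0.54, adjusted p = 0.00219). Chac1, at 3.79, 4.06, 5.31 and 4.23 CPM at 19 months, fell by 0.97, and Sesn2, at 8.87, 10, 10.5 and 7.27 CPM, fell by 0.92. The ages did not overlap for any of these 3 genes. The share of all genes without overlap was not counted, and 62.8% of all genes were called with age in these mice. Aldh18a1, the first enzyme of proline synthesis from glutamate, fell by 0.50. The one-carbon enzymes Mthfd2, Shmt2 and Mthfd1l fell by 0.87, 0.52 and 0.39. Ddit4, Trib3 (a pseudokinase induced by CHOP), Psph and Cth (cystathionine gamma-lyase) did not pass, at log2 fold changes of 0.02, 0.45, -0.017 and -0.27.

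The 3 members that rose were Atf3, Phgdh and Psat1. Atf3, at 1.11, 0.595, 1.51 and 1.21 CPM at 3 months and 3.79, 2.98, 2.93 and 2.54 CPM at 19 months, rose by 1.55 on the log2 scale (2.92-fold, 95% interval 1.005 to 2.09, adjusted p = 7.86e-06). Phgdh, the first enzyme of serine synthesis and one expressed mainly by astrocytes in the brain, was at 44.0, 43.9, 39.5 and 40.3 CPM at 3 months and 56.2, 51.6, 54.8 and 50.6 CPM at 19 months, and rose by 0.36 (adjusted p = 6.81e-06). Psat1, the next enzyme, was at 114, 112, 112 and 102 CPM and at 125, 122, 113 and 111 CPM. It rose by 0.12, with overlap between the ages and an adjusted p of 0.0455. That call was lost under 10 of 17 other settings: the likelihood-ratio test, DESeq2, library size only, no filter on counts, one fit of all mice, and the fits without 3-month mouse 10, 11 or 12 or without 19-month mouse 12 or 13. With the cerebellum markers as a covariate its sign changed, at -0.001.

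Of the enzymes of serine synthesis, Phgdh and Psat1 thus rose and Psph did not pass. Of the 5 members with the response element core, Atf3 rose, Asns, Chac1 and Pycr1 fell and Trib3 did not pass. Summed astrocyte markers lay in the same direction as Phgdh, going from 4190 to 4550 CPM in 3-month to 7970 to 8980 CPM in 19-month wild-type mice, with all 10 markers detected; their part in the result was not tested. When the cerebellum markers were entered as a covariate, 0 of the 35 members passed in wild-type mice. In these mice the markers separate the ages completely, 761 to 1230 against 134 to 161 CPM, so this fit can hardly distinguish them.

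**Figure D4:**
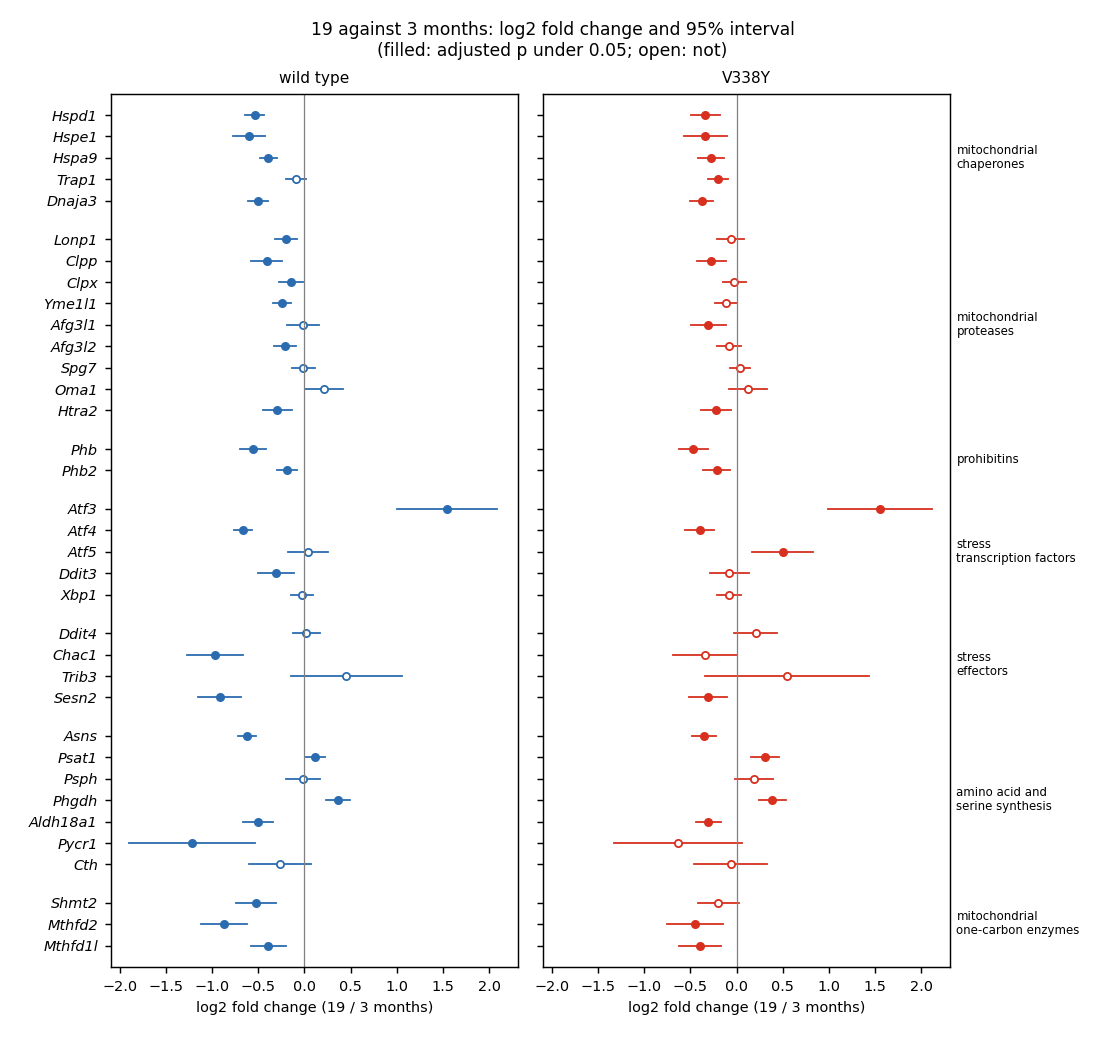
Log2 fold change of 19 against 3 months for the 35 members in wild-type mice (left, blue) and V338Y mice (right, red), with 95% intervals; filled points passed at an adjusted p under 0.05. In wild-type mice 25 points are filled, 22 of them left of zero, and in V338Y mice 20, 16 of them left of zero; Atf3 lies farthest to the right in both panels.

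19 against 3 months in V338Y mice. In V338Y mice 16 members fell and 4 rose, where 25.7% of 16770 genes were called lower and 23.1% higher by the same test. The median of the members was -0.201 and that of all genes -0.029. All 5 chaperones fell, by 0.38 on the log2 scale for Dnaja3, 0.34 for Hspd1 and Hspe1, 0.28 for Hspa9 and 0.20 for Trap1. Of the proteases, Afg3l1 fell by 0.31, Clpp fell by 0.27 and Htra2 fell by 0.22, and the other 6 did not pass.

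The 3 largest falls were those of Phb, Mthfd2 and Atf4. Phb was at 47.1, 42.0, 36.4 and 41.7 CPM at 3 months and 28.3, 30.3, 31.1 and 31.6 CPM at 19 months, and fell by 0.47 (adjusted p = 0.000239). Mthfd2, the mitochondrial methylenetetrahydrofolate dehydrogenase that is low in most adult tissues, was at 8.75, 7.66, 8.02 and 11.6 CPM and at 6.97, 7.20, 5.91 and 6.56 CPM. It fell by 0.45 (adjusted p = 0.0174), a call that was lost without 3-month mouse 16, where the value was -0.295, or without 19-month mouse 19. Atf4, at 91.3, 89.3, 85.9 and 82.1 CPM at 19 months, fell by 0.40 (adjusted p = 0.000635). The ages did not overlap for Phb, Mthfd2 or Atf4. The share of all genes without overlap was not counted here either, and 48.8% of all genes were called with age in V338Y mice.

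Asns fell by 0.36, Sesn2 fell by 0.31, Aldh18a1 fell by 0.31, Mthfd1l fell by 0.40 and Phb2 fell by 0.22. Chac1, Pycr1 and Shmt2 did not pass, with log2 fold changes of -0.34, -0.64 and -0.20 and adjusted p-values of 0.0952, 0.118 and 0.131. The calls of Hspe1, Htra2, Phb2 and Sesn2 were each lost in 3 or more of the 8 fits that left out 1 mouse, and that of Htra2 also with DESeq2 and with GC content and length trends removed. Without mouse 16 of the 3-month V338Y mice 16 members passed, and without mouse 15 of that group 21 did.

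The 4 members that rose were Atf3, Atf5, Phgdh and Psat1. Atf3, at 0.575, 0.857, 0.703 and 0.951 CPM at 3 months and 2.73, 2.13, 2.82 and 1.59 CPM at 19 months, rose by 1.55 (2.93-fold, adjusted p = 0.000354). Atf5, which has been proposed as the mammalian counterpart of a worm regulator of the mitochondrial unfolded protein response, was at 11.6, 8.07, 6.12 and 10.3 CPM and at 12.1, 12.5, 12.9 and 13.5 CPM. It rose by 0.50 (adjusted p = 0.0167), and its levels at 19 months were those of the wild-type mice at either age, 10.3 to 13.7 CPM. Phgdh, at 43.0, 42.3, 34.9 and 43.7 CPM and then 55.9, 55.5, 52.2 and 52.4 CPM, rose by 0.39, and Psat1 rose by 0.31.

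With the cerebellum markers as a covariate, 6 members passed in V338Y mice: Phb at -0.475, Dnaja3 at -0.405, Hspd1 at -0.383, Asns at -0.377 and Phb2 at -0.334 were lower, and Trib3, at 4 to 24 counts per mouse, was higher. Atf3 and Atf4 then had values of 1.33 and -0.348 and did not pass. In this fit 1 mouse, the 3-month mouse 14 with 181 CPM of cerebellum markers, is all that separates region from age, and it shares its sex markers with the other 3-month mice. Of the 20 members called without the covariate, mouse 14 lay outside the range of the 19-month V338Y mice, on the 3-month side, for 19. For 17 of these it lay at least as far out as another 3-month V338Y mouse. Mouse 14 was part of the fit that called these members, so the counts are a description and no separate test. The part of the region in the age comparisons was not tested beyond these fits.

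Difference of the age effects between genotypes. In the fit of all 16 mice, 0 of the 35 members differed in age effect between V338Y and wild-type mice by edgeR's quasi-likelihood test after adjustment, where 0.0535% of 16831 genes were called; the likelihood-ratio test and DESeq2 also called 0 members. At an unadjusted p under 0.05, 9 members were higher and 1 lower, beside 5.33% and 4.91% of all genes, and the median was 0.149 for the members and 0.002 for all genes. A positive value means a smaller fall or a larger rise in V338Y mice. The members with the smallest p-values were Sesn2 at 0.62 ± 0.16 (adjusted p = 0.155), Asns at 0.28 ± 0.08 (adjusted p = 0.221) and Atf4 at 0.28 ± 0.09 (adjusted p = 0.297). Chac1 followed at 0.64 (95% interval 0.17 to 1.11, adjusted p = 0.35) and Atf5 at 0.48 (0.09 to 0.87, adjusted p = 0.406).

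For Atf4, the level in 19-month mice was 80.1 to 91.4 CPM in wild-type and 82.1 to 91.3 CPM in V338Y mice, while in 3-month mice it was 133 to 140 and 97.1 to 125 CPM. For Asns the 19-month levels were 78.8 to 84.3 and 82.8 to 88.0 CPM and the 3-month levels 123 to 131 and 96.1 to 119 CPM. For both genes the genotypes were apart at 3 months and overlapped at 19 months. For Sesn2 the genotypes also overlapped at 19 months, at 7.27 to 10.5 and 9.46 to 11.9 CPM. The age comparisons and the genotype comparisons share these mice, so that their values are not separate pieces of evidence.

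Of the 35 members, 14 were called lower with age in both genotypes, namely Hspd1, Hspe1, Hspa9, Dnaja3, Clpp, Htra2, Phb, Phb2, Atf4, Sesn2, Asns, Aldh18a1, Mthfd2 and Mthfd1l, and 3 were called higher in both, namely Atf3, Psat1 and Phgdh. None was called in opposite directions. Called in wild-type mice alone were 8 members, Lonp1, Clpx, Yme1l1, Afg3l2, Ddit3, Chac1, Pycr1 and Shmt2, and called in V338Y mice alone were 3, Trap1, Afg3l1 and Atf5. As given above, none of these 11 showed a difference of the age effects that passed the test. The 7 members called in neither were Spg7, Oma1, Xbp1, Ddit4, Trib3, Psph and Cth.

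Other genes of these pathways were read from lists, whose counts stand beside 31.5% of all genes lower and 31.4% higher with age in wild-type mice and 25.7% lower and 23.1% higher in V338Y mice. Over 28 further mitochondrial chaperones, import subunits and proteases, 17 fell and 1 rose in wild-type mice, and 16 fell and 1 rose in V338Y mice. Among those that fell in wild-type mice were Timm17a, a subunit of the TIM23 translocase, by 0.73 on the log2 scale, and Tomm70a, an import receptor, by 0.53, while Clpb, a disaggregase of the intermembrane space, rose by 0.24. Between genotypes at 19 months, 1 of the 28 was called higher and 0 lower in V338Y mice, beside 1.19% and 1.92% of all genes. This gene, Timm17a, was at 26.7 to 29.1 CPM in wild-type and 32.1 to 35.5 CPM in V338Y mice. Its log2 fold change was 0.28 ± 0.06 (adjusted p = 0.0073).

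Of 17 genes for eIF2, its exchange factor, kinases and phosphatases, 10 fell and 3 rose in wild-type mice, and 10 fell and 2 rose in V338Y mice. Eif2b4, a subunit of eIF2B, fell by 0.59 and 0.40, and Eif2s1, the phosphorylated subunit of eIF2, fell by 0.40 and 0.46. Eif2ak2, which encodes the interferon-induced kinase PKR, rose 2.26-fold and 2.1-fold with age. Of the 17 genes it was the 1 called between genotypes at 19 months, where 1.19% of all genes were higher and 1.92% lower. It was lower in 19-month V338Y mice, at 13.1 to 15.1 against 16.3 to 19.3 CPM (log2 fold change -0.33 ± 0.09, adjusted p = 0.0257). Microglia markers were lower in the same mice, without overlap. Most meninges, astrocyte, endothelial and blood markers also had log2 fold changes below zero, although 1 meninges marker was called higher. The part of these markers in this value was not tested. Eif2ak3, which encodes the endoplasmic reticulum kinase PERK, rose by 0.17 in wild-type mice. Eif2s3x, an X-linked gene whose Y-linked copy was at 0 in the 19-month libraries, rose by 0.38 and 0.46 along with the change in sex markers.

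The cytosolic aminoacyl-tRNA synthetases, many of them induced by ATF4, were mostly lower at 19 months. Of 18 measured, 15 fell and 1 rose in wild-type mice, and 14 fell and 0 rose in V338Y mice. In wild-type mice Yars fell by 0.65, Nars fell by 0.61 and Sars fell by 0.60, and Iars rose by 0.34. Between genotypes at 19 months, 0 of the 18 were called. At 3 months 4 of the 18 were lower in V338Y mice at an unadjusted p under 0.05, beside 2.65% of all genes, and none passed after adjustment. In the difference of the age effects 7 of the 18 were higher at an unadjusted p under 0.05, beside 5.33% of all genes, and again none passed.

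Of 21 other ATF4 and CHOP targets tested, 7 rose and 6 fell in wild-type mice, shares near those of all genes, and 9 rose and 1 fell in V338Y mice. Slc7a11, the cystine transporter, rose 3.15-fold in wild-type and 2.56-fold in V338Y mice, and Nupr1, a small stress-induced chromatin protein, rose 2.43-fold and 2.26-fold. Bbc3 (PUMA), a proapoptotic BH3-only gene, fell by 0.78 and 0.59, and Slc7a3, a cationic amino acid transporter, fell by 0.54 in wild-type mice. Slc7a11 was the 1 of the 21 genes called between genotypes at 19 months, where 1.19% of all genes were higher and 1.92% lower. It was at 223 to 240 CPM in wild-type and 180 to 200 CPM in V338Y mice of that age (log2 fold change -0.29 ± 0.04, adjusted p = 1.35e-05). The markers named for Eif2ak2 stand beside Slc7a11 too. Of 10 astrocyte markers, 8 had log2 fold changes below zero in these V338Y mice and 1 was called lower. The part of all these markers was not tested here either. At 3 months 6 of the 21 were lower in V338Y mice at an unadjusted p under 0.05, beside 2.65% of all genes, with a list median of -0.159.

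Of 22 other genes of serine, glycine, proline, cysteine and folate metabolism, 8 rose and 4 fell in wild-type mice, and 6 rose and 3 fell in V338Y mice. In wild-type mice Pycr3, an enzyme of proline synthesis, fell by 0.41, and Prodh, the proline dehydrogenase of mitochondria, rose by 0.64. Of 19 genes of the endoplasmic reticulum stress response, 7 rose and 2 fell in wild-type mice, and 7 rose and 1 fell in V338Y mice. Ern1, which encodes the sensor IRE1, rose by 0.76 and 0.39, and Dnajc3 rose by 0.56 and 0.52, while Herpud1 fell by 0.22 in wild-type mice. No gene of these 2 lists passed between genotypes at either age.

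**Figure D5:**
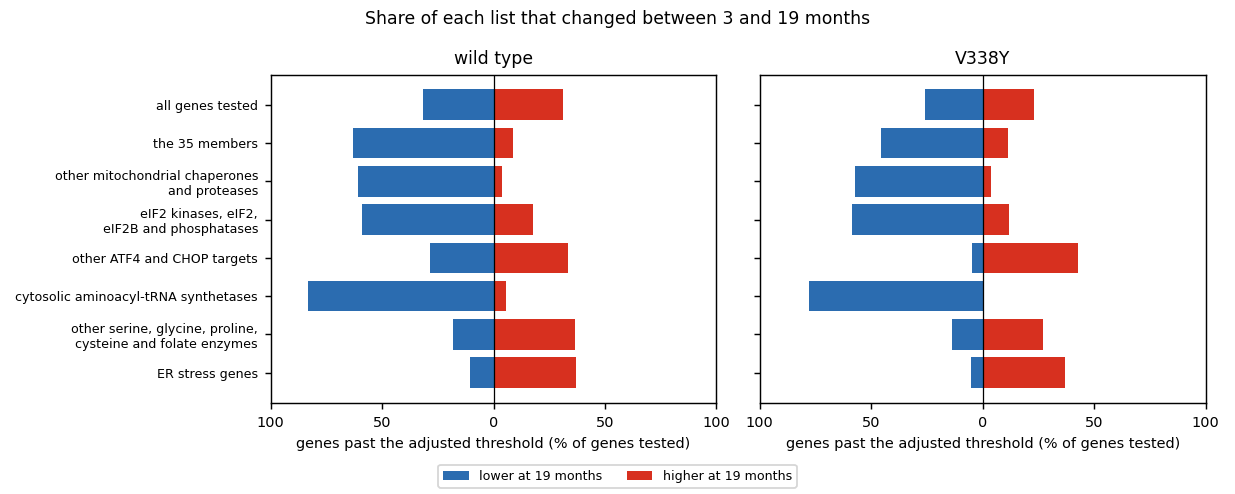
Share of the genes tested in each list that passed as lower (blue, to the left) or higher (red, to the right) at 19 months, in percent, for all genes, the 35 members and 6 lists of related genes, in wild-type (left) and V338Y mice (right). All genes are balanced, and the members, the further chaperones, the eIF2 genes and the aminoacyl-tRNA synthetases lie mostly to the left. The endoplasmic reticulum stress genes lie more to the right. The other ATF4 targets are near balance in wild-type mice and lie more to the right in V338Y mice.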

How the data were processed

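RNA sequencing of brain from 16 mice was analysed, 4 in each of 4 groups taken from the labels. The authors deposited estimated counts per gene without normalization; per the study's methods these are expected counts from RSEM on Ensembl 75, whereas the submitters' processing notes name bcl2fastq 1.8.4, STAR 2.4.2a, featureCounts and GRCm38, and which of them gave the table is not resolved here. Values were whole numbers, and all 1495 values of 10000 or more ended in 0. Identifiers were matched to symbols and positions in GENCODE M21 on GRCm38 (37693 matched).

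A gene was kept when 2 or more of the 4 samples of a group reached 10 counts, which retained all 35 members in every comparison. Each pair of groups was fitted alone with TMM normalization and the robust quasi-likelihood test of edgeR 4.0.16 in R 4.3.3, and the difference of the age effects was fitted on all 16 mice. P-values were adjusted with Benjamini-Hochberg over all genes, and a gene was called at an adjusted p under 0.05. Intervals are 95% intervals of the fit. The code was tested on simulated data.

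The members and gene lists were chosen with earlier results of these data known. Values per mouse are given for the 3 members with the smallest p in each genotype comparison and in the difference of the age effects, and for the 3 largest rises and falls with age. Other members are named so that each is accounted for, and the values per mouse of Asns at 3 months, of Atf3 between genotypes and of Hspd1 were added after they were seen. From the lists, up to 3 called genes per direction were named. Alternatives were the likelihood-ratio test, DESeq2 1.42.0, other size factors, other filters, one fit of all mice, removal of GC content and length trends, the cerebellum markers as a covariate, and each mouse left out.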

Additional observations from a re-analysis of the deposited data

Results flagged for a closer look

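In 8 of 140 checks, each of 1 member in 1 group of 4 mice, a single mouse lay far from the other 3 by Dixon's test; chance flags about 1 in 20 groups, so this number is near the one that chance gives. In 3-month V338Y mice, Afg3l1 was at 26.5 CPM in mouse 14 (other mice 32.1 to 32.9), Htra2 at 19.7 CPM in mouse 15 (23.5 to 24) and Phgdh at 34.9 CPM in mouse 15 (42.3 to 43.7). In 3-month wild-type mice, Psat1 was at 102 CPM in mouse 12 (112 to 114) and Psph at 19.2 CPM in mouse 9 (16.3 to 16.8). In 19-month V338Y mice, Chac1 was at 4.04 CPM in mouse 20 (4.47 to 4.55), Pycr1 at 0.306 CPM in mouse 20 (0.707 to 0.784) and Cth at 4.95 CPM in mouse 17 (3.73 to 3.92). Pycr1 in mouse 20 rests on 5 counts.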

How the results depend on the processing

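No paired analysis was possible because the groups compared share at most 1 replicate number. For the members called, the count at 19 months between genotypes was 1, Ddit4, instead of 0 with RLE size factors, with library size only, with at least 10 counts in every sample, with no filter on counts and with cerebellum markers as covariate; the cause was not tested. It was 0 in every fit that left out 1 mouse, as were the counts at 3 months and for the difference of the age effects. With age, leaving out 1 mouse gave 22 to 25 members in wild-type and 16 to 21 in V338Y mice, and the cerebellum covariate gave 0 and 6. That covariate, which in these libraries separates the ages of the wild-type mice completely, also turned the direction there of Hspd1 (0.242), Dnaja3 (0.054), Clpp (0.68), Clpx (0.639), Yme1l1 (1.011), Phb (0.345), Sesn2 (1.66), Psat1 (-0.001), Shmt2 (0.141), Clpb (-0.636), Eif2s1 (0.811), Eif2b4 (0.124), Bbc3 (1.335), Cbs (-0.496), Dnajb11 (1.164) and Ern1 (-0.117), and that of Bbc3 in V338Y mice (0.384). With library size only, the share of higher genes among all calls was 39.8% instead of 49.9% with age in wild-type mice and 57.6% instead of 38.3% between genotypes at 19 months, and the members called with age in wild-type mice were 2 higher and 23 lower. With GC content and length trends removed these were 6 higher and 20 lower. One fit of all mice called 116 genes between genotypes at 19 months instead of 512, and leaving out 19-month V338Y mouse 19 or 19-month wild-type mouse 13 gave 287 and 294. Depth limits Pycr1, Trib3 and Atf3 most, with at most 54 counts in any mouse.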
